A study of Mus musculus with 20 samples.

Results

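The 10 genes described here encode the E2F transcription factors E2f1, E2f2, E2f3, E2f4, E2f5, E2f6 and E2f8 and the 3 RB-family proteins Rb1, Rbl1 and Rbl2, out of 18193 genes that the array names through a probe set of 1 gene alone. The set was chosen from measured values, because E2f2 had been noted for its fall between the pre-leptotene and the leptotene-zygotene fractions of these same arrays, and the other members are its relatives. All values of that 1 step are therefore a description without a test, and so are the 2 neighbouring steps for E2f2, which share its arrays. The data are 20 Affymetrix MOE430 version 2 arrays of RNA from germ cells of adult testis, sorted by flow cytometry on the fluorescence of the DNA dye Hoechst. There were 4 arrays of spermatogonia (Sp), 3 of pre-leptotene (pL), 3 of leptotene-zygotene (L/Z), 1 of early-pachytene (eP), 2 of mid-pachytene (mP), 1 of late-pachytene (lP) and 2 of diplotene (D) spermatocytes, and 4 of round spermatids (RS). Every fraction came from untreated male F1 mice of the cross C57BL/6 x DBA/2J, aged 10 to 16 weeks in the labels, with no mutant or treated group among them. Each array held RNA pooled from several sorts, so the spread between arrays is that between pools and not between single mice. The L/Z fraction mixed leptotene with zygotene cells, and the single eP and lP arrays have no replicate.

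E2F proteins bind the promoters of genes needed for DNA replication and the cell cycle, as dimers with a DP partner. E2F1, E2F2 and E2F3 are known as activators, E2F4 and E2F5 act mainly with the pocket proteins p107 (Rbl1) and p130 (Rbl2) in repression, and E2F6 and E2F8 repress without binding a pocket protein. RB1, p107 and p130 hold E2Fs in check until cyclin-dependent kinases phosphorylate them, and p130 is the pocket protein typical of cells that have left the cycle. In the testis, spermatogonia divide by mitosis, pre-leptotene cells carry out the last DNA replication before meiosis, and spermatocytes then pass through a long meiotic prophase without another S phase.

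Some E2F genes are themselves regulated through E2F motifs, so the starts of the members were searched. RefSeq windows of 300 bases on GRCm38.p6, from 250 bases before to 50 bases after a start, were at hand for 7 of the 10 genes (E2f1, E2f2, E2f3, E2f6, E2f8, Rbl1 and Rbl2; 9 windows). The E2F motifs TTTCCCGC, TTTCGCGC, TTTGGCGC and TTTGCCGC were sought on both strands, and 3 of the 7 genes held one. Of all 32851 windows in the table, 2.26% held at least 1 of these 4 motifs, 1.07% TTTCCCGC, 0.323% TTTCGCGC, 0.514% TTTGGCGC and 0.441% TTTGCCGC. The 3 stretches are shown because they belong to an activator, E2f3, to the pocket protein gene Rbl1 and to E2f2 itself, with the motif in capitals and each read 5′ to 3′ on the strand of its gene.
E2f3: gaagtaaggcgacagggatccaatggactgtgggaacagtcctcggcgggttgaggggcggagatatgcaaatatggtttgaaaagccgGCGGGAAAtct
Rbl1: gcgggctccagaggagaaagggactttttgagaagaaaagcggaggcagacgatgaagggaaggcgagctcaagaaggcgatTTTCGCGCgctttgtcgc
E2f2: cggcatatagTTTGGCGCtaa
The E2f3 stretch is chr13:29986064-29986163 (minus strand), the 100 bases before 1 of its 2 starts, and its motif is TTTCCCGC on the opposite strand, beginning 11 bases before the start. The Rbl1 stretch is chr2:157204535-157204634 (minus strand), again the 100 bases before the start, with TTTCGCGC beginning 18 bases before it. The E2f2 stretch is chr4:136172303-136172323 (plus strand) and holds TTTGGCGC at base 40 after the start. The windows of E2f1, E2f6, E2f8 and Rbl2 held none of the 4 motifs, which says only that these letters are not in them. The CHR motif TTTGAA, an element of genes controlled by the DREAM complex of p107 or p130, was found in windows of E2f2, E2f3, E2f8 and Rbl2, and in 17.9% of all windows. Its positions were 31, 23, 20 and 201 bases before the start, and the E2f2 hit lay in the window of a second start. A match is a string of letters and not a measured site.

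The platform annotation gave 23 probe sets to the 10 genes alone. Signals were taken as log2 of the deposited GC-RMA value, and a probe set was tested where this reached 5 in at least 2 arrays, which 15 probe sets of 9 genes did. The brightest probe set of a gene stands for it below, and other probe sets are given where they differ. E2f4, which encodes the most widespread repressive E2F, had a single probe set whose values lay between 2.23 and 4.13 in all 20 arrays, under the filter, so it was not tested and its RNA level is not resolved here. The median deposited signal per array, before the log, ranged from 11.1 to 12.7. limma compared fractions in 1 model over all arrays, two-sided, with Benjamini-Hochberg adjustment over 22396 probe sets and a threshold of 0.05. Levels are comparable between arrays for 1 probe set, and no probe set's level is set against another's. In such bulk RNA, fewer cells of a kind and less RNA per cell cannot be told apart. Headers of a supplementary dataset number array projects, which were matched to the arrays by equal signals, and arrays of 1 project deviated from their fraction means together (median correlation 0.44 over 21 pairs), so changes within a project are given as well. Another supplementary table numbers some of these arrays differently, so the project numbers carry that doubt. A log2 value under 5 is close to background, so a change into or out of that range is given as a bound, from values under 5 raised to 5, with the words at least.

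Of the markers of the fractions, 7 spermatogonial genes had a mean log2 signal of 10.6 in Sp, 10.9 in pL and 11.1 in L/Z and of 5.25 in D and 4.57 in RS, so they do not separate Sp from the next fractions. The mean of 6 pachytene markers was 10.8 in L/Z and 12.9 in mP, and that of 8 spermatid markers 11.1 in D and 13.2 in RS, though 10.7 in Sp. Of 8 leukocyte and macrophage markers, 5 were at log2 5 or above in all 4 Sp arrays, and the mean over the list ranged from 5.99 to 7.51 among these. In pL it was 6.31, 3.44 and 3.28, and from L/Z on it was at most 3.83. Ptprc (CD45) reached 9.43 in Sp, 5.32 in pL and at most 2.81 in any later fraction. Not all of the list did so, as Cd74 still reached 7.09 in L/Z. Laptm5 went the other way, with at most 5.22 in Sp, 8.66 in eP and 6.60 in mP. Of 9 Sertoli cell markers, 5 were under log2 5 in all Sp arrays, and the 2 defining genes Fshr and Sox9 reached at most 1.79 and 3.93 in any array. The Sertoli markers Clu, Aard and Amhr2 reached 11.7, 9.28 and 8.73 in Sp and 12.4, 10.2 and 10.4 in RS, and Wt1 reached 6.30 and 6.13. Of 8 markers of Leydig and peritubular cells on the array, 4 were at log2 5 or above in all Sp arrays. Acta2, Tagln and Myh11 of the peritubular muscle reached 11.2, 9.95 and 8.19 in Sp and 9.62, 8.38 and 6.25 in RS. The Leydig genes Cyp17a1, Hsd3b1 and Cyp11a1 reached 7.01, 4.14 and 4.31 in Sp and more in RS, 7.95, 5.83 and 4.69. Star of the same cells reached 6.04 in Sp and 5.41 in RS. The mean over this list lay between 5.16 and 6.75 in the Sp arrays and between 5.23 and 5.83 in the RS arrays. The part of such cells in the results below was not tested.

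**Figure D1:**
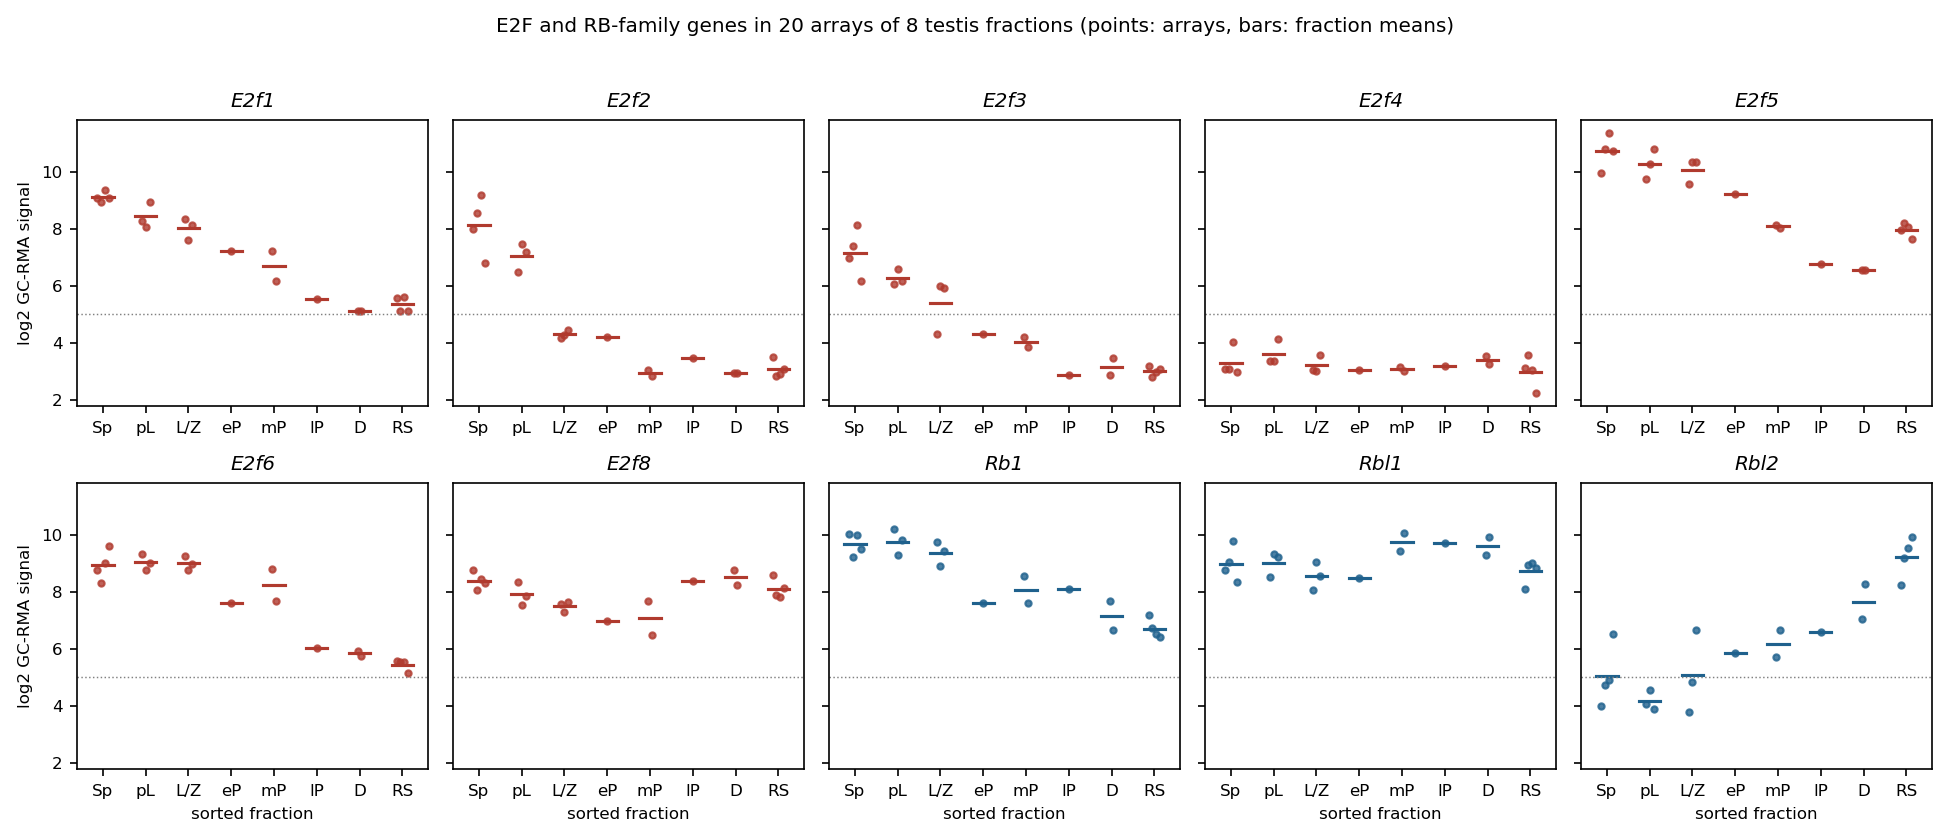
Log2 GC-RMA signal (y axis) of the 10 genes, each by its brightest probe set, in the 8 sorted fractions (x axis, in the order of spermatogenesis). Points are arrays, bars are fraction means, the dotted line marks log2 5, and red panels are E2F genes and blue ones RB-family genes. E2f1, E2f2, E2f3, E2f5, E2f6 and Rb1 had lower means in round spermatids than in spermatogonia, Rbl2 a higher one, and all E2f4 values lay under 5.

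Across the whole course, from Sp to RS, the activator genes, E2f5, E2f6 and Rb1 had the higher signal in spermatogonia, and Rbl2 in round spermatids. E2f2 is given as a description, since it was chosen for its fall from the level of the first fractions and passed the filter through its Sp and pL arrays alone. Of the other 8 tested genes, 5 fell, 1 rose and 2 did not pass. The 5 falls include E2f3, which passed the filter through Sp, pL and L/Z arrays alone and is described only. Among all 22396 probe sets, 41.2% fell and 31.9% rose in this comparison, so a call here was common. The median change of the 8 genes, the described E2f3 among them, was -2.88, and that of all probe sets -0.32.

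E2f2, an activator known from proliferating cells, had log2 signals of 7.99, 8.56, 9.19 and 6.82 in the 4 Sp arrays and of 6.50, 7.46 and 7.20 in the 3 pL arrays. In the L/Z arrays it stood at 4.18, 4.28 and 4.45. The 3 L/Z arrays lay below every Sp and pL array, and the Sp and pL arrays overlapped. The pL and L/Z means, 7.06 and 4.30, differ by -2.75 (standard error 0.44), which is the difference the gene was chosen for. As the L/Z values lie under log2 5, the signal was at least 4.16-fold lower. In the 2 projects that hold both fractions the differences were -2.32 and -2.75, and a second probe set of E2f2 showed -2.20. At the later stages E2f2 was at 4.21 in eP, 3.03 and 2.83 in mP, 3.46 in lP, 2.94 and 2.94 in D, and 3.50, 2.84, 2.89 and 3.07 in RS. No array from L/Z on reached log2 5. By their order, Sp, pL and L/Z lie farther apart than the residual standard deviation of 0.57, L/Z and eP differ by 0.09, and lP, RS, D and mP follow one another within the spread.

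The Sp and RS means of E2f2, 8.14 and 3.07, differed by -5.07 (standard error 0.38), and by at least 3.14 with values under 5 raised to 5. Every RS array lay below every Sp array. Within projects 5 and 8, which hold both fractions, the differences were -5.73 and -3.75. Leukocyte markers were high in the same Sp arrays, as given above. E2f2 was lowest among the Sp arrays in replicate 4, at 6.82, where the leukocyte mean was highest, at 7.51. It was also lowest among the pL arrays in replicate 1, at 6.50, where the leukocyte mean was 6.31 against 3.44 and 3.28 in the others. The second probe set of E2f2 was lowest in Sp replicate 4 too, at 5.98. Among the pL arrays it was lowest in replicate 2, at 5.64, against 6.17 in replicate 1. The part of leukocytes in these values was not tested.

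The 5 genes whose pattern over the 20 arrays was most like that of E2f2, among 19579 probe sets, were Ro60 (Pearson correlation 0.97), Cracr2b (0.96), Mrc2 (0.95), Bmyc (0.94) and Dscc1 (0.94). Dscc1 encodes a subunit of a clamp loader used in sister chromatid cohesion, and Ro60 an RNA-binding protein. Genes picked for this likeness were bound to share the fall of E2f2 from pL to L/Z. Their means in pL and L/Z were 6.62 and 5.47 for Ro60, and 5.23 and 3.88 for Dscc1, whose L/Z mean lies under log2 5. The likeness is a description over arrays that share fractions.

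E2f1, the activator best known for induction of S-phase genes, had 9.09, 8.97, 9.40 and 9.11 in Sp, 8.29, 8.09 and 8.96 in pL, and 8.36, 7.61 and 8.14 in L/Z. It stood at 7.25 in eP, 7.22 and 6.17 in mP, 5.52 in lP, 5.12 and 5.10 in D, and 5.58, 5.12, 5.62 and 5.11 in RS. The means descended at every step from Sp to lP, and neighbours in this order differed by more than the residual standard deviation of 0.36 up to mP and lP, while lP, RS and D did not. From Sp to RS E2f1 fell by 3.78 (standard error 0.27, adjusted p = 6.01e-09 from limma), and within projects 5 and 8 the differences were -3.85 and -3.99. Its second tested probe set fell by at least 3.92 (adjusted p = 1.18e-08), with all RS arrays under log2 5.

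E2f3, the third activator, had 6.99, 7.42, 8.14 and 6.16 in Sp, 6.08, 6.61 and 6.17 in pL, and 4.30, 6.00 and 5.93 in L/Z. From eP on it was between 2.78 and 4.31 in every array, under log2 5. L/Z replicate 1 stood apart from the other L/Z arrays, which lay just below the lowest pL array. E2f3 passed the filter through arrays of Sp, pL and L/Z alone, so its difference from Sp to RS is described only. E2f3 was at least 2.18 lower in RS, the fitted difference of -4.18 (standard error 0.41) reaching into values near background. Its second probe set reached 5 in 3 arrays, and its fitted difference of -1.12 was -0.086 (adjusted p = 0.51) with values under 5 raised to 5.

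E2f5, a repressive E2F that works with p107 and p130, had its lowest signal in late-pachytene and diplotene cells and a higher one again in round spermatids. Its log2 signals were 9.99, 10.81, 11.40 and 10.77 in Sp, 9.76, 10.30 and 10.83 in pL, and 9.58, 10.37 and 10.36 in L/Z. They were 9.24 in eP, 8.15 and 8.05 in mP, 6.76 in lP and 6.57 and 6.55 in D, and then 7.96, 8.23, 8.08 and 7.66 in RS. The lP and D means, 6.76 and 6.56, differ by less than the residual standard deviation of 0.43, and the second probe set had 6.30 in lP and 6.62 in D. The 4 RS arrays lay above both D arrays and below every Sp array. E2f5 fell by 2.76 from Sp to RS (standard error 0.30, adjusted p = 5.4e-07 from limma).

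E2f6, which carries a polycomb complex to promoters of germline genes, lay between 8.33 and 9.63 in the 10 arrays of Sp, pL and L/Z, whose means of 8.95, 9.05 and 9.02 differ by less than the spread. It was 7.61 in eP, 8.81 and 7.68 in mP, 6.04 in lP, 5.93 and 5.77 in D, and 5.57, 5.55, 5.54 and 5.15 in RS. The 2 mP arrays stood apart, and only the higher one reached the range of the earlier fractions. E2f6 fell by 3.50 from Sp to RS (standard error 0.29, adjusted p = 2.52e-08 from limma).

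E2f8, an atypical repressor that binds DNA without a DP partner, did not follow the others. It had 8.77, 8.06, 8.45 and 8.33 in Sp, 8.35, 7.56 and 7.88 in pL, and 7.57, 7.32 and 7.66 in L/Z. Its lowest means were in eP, at 6.99, and in mP, where the 2 arrays stood apart at 7.68 and 6.49 on either side of the L/Z range, followed by 8.38 in lP, 8.80 and 8.26 in D, and 8.61, 7.90, 7.85 and 8.15 in RS. The RS and Sp arrays overlapped, with a difference of -0.28 (standard error 0.29, adjusted p = 0.397 from limma). D, Sp, lP and RS stood at the top of its order within 1 residual standard deviation of 0.39 from neighbour to neighbour.

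Rb1, the retinoblastoma tumour suppressor, lay between 8.93 and 10.22 in the 10 arrays from Sp to L/Z. It was 7.63 in eP, 8.56 and 7.62 in mP, 8.11 in lP, 7.69 and 6.66 in D, and 7.18, 6.74, 6.52 and 6.44 in RS. No array from eP on reached the lowest of the earlier 10, and the L/Z mean stood 1.28 above the next fraction in the order. Rb1 fell by 3.0 from Sp to RS (standard error 0.33, adjusted p = 4.49e-07 from limma), with -2.52 and -3.09 within projects 5 and 8.

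Rbl1, which encodes p107, gave 2 different pictures by its 2 tested probe sets, whose correlation over the 20 arrays was 0.06. By the brighter one the values were 8.77, 9.05, 9.81 and 8.37 in Sp, 8.53, 9.35 and 9.25 in pL, and 8.09, 9.06 and 8.56 in L/Z. They were 8.49 in eP, 9.46 and 10.08 in mP, 9.75 in lP, 9.32 and 9.95 in D, and 8.12, 8.97, 9.03 and 8.86 in RS. Sp and RS overlapped, with a difference of -0.26 (adjusted p = 0.51 from limma). By the other, all 10 arrays from Sp to L/Z were between 5.74 and 7.63 and all later ones between 3.12 and 4.85. This probe set passed the filter through those 10 arrays alone, so it is described only. It was at least 1.49 lower in RS than in Sp, the fitted difference being -3.25 (standard error 0.37). For the other genes with 2 tested probe sets the correlations between them were 0.78 for E2f3, 0.87 for Rbl2, 0.96 for E2f1, 0.97 for E2f2 and 0.98 for E2f5. Which transcripts the 2 Rbl1 probe sets detect was not tested.

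Rbl2, which encodes p130, was the only one of the 9 tested genes that rose from Sp to RS. It had 4.00, 4.74, 4.91 and 6.54 in Sp, 4.07, 4.56 and 3.88 in pL, and 3.78, 4.82 and 6.67 in L/Z. It was 5.87 in eP, 5.70 and 6.67 in mP, 6.60 in lP, 7.04 and 8.27 in D, and 8.25, 9.19, 9.57 and 9.94 in RS. All RS arrays lay above all Sp arrays, and Sp replicate 4 and L/Z replicate 3, both of project 8, stood above the other arrays of their fractions. Rbl2 rose by 4.19 from Sp to RS (standard error 0.61, adjusted p = 1.11e-05 from limma), and within projects 5 and 8 the differences were 4.45 and 3.40. With values under 5 raised to 5 it was 3.85 (adjusted p = 3.63e-06). The second probe set was under log2 5 in every array but the 4 of RS, through which alone it passed the filter, so it is described only, with at least 1.72 between these fractions.

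**Figure D2:**
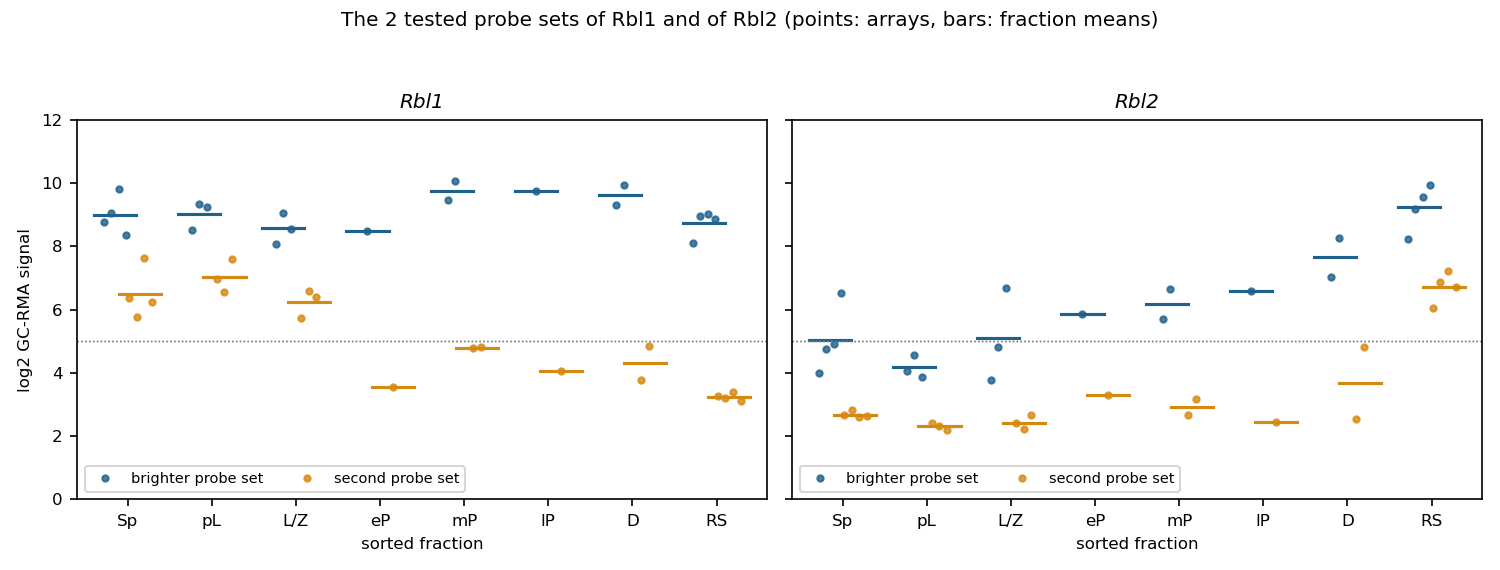
Log2 GC-RMA signal (y axis) of the 2 tested probe sets of Rbl1 (left) and of Rbl2 (right) in the 8 fractions (x axis). Points are arrays, bars are fraction means, and the dotted line marks log2 5. Blue is the brighter and orange the second probe set. The second Rbl1 probe set is under the dotted line from early-pachytene on and above it before, and both Rbl2 probe sets are highest in round spermatids.

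L/Z and mP lie on either side of early pachynema, for which there was 1 array. From L/Z to mP, E2f1, E2f5 and Rb1 fell, 0 of 8 tested members rose, and 5 did not pass, E2f2 being left out, with 5 of 8 at an unadjusted p under 0.05. Over all probe sets 15.3% fell and 13.7% rose, with a median of -0.15, against -1.04 for the 8 genes. Both counts of 5 and the median of the 8 include E2f3, which is described only at this step, as given below. E2f5 fell by 2.00 (standard error 0.39, adjusted p = 0.00192), E2f1 fell by 1.34 (standard error 0.35, adjusted p = 0.0106) and Rb1 fell by 1.30 (standard error 0.42, adjusted p = 0.0296). Both mP arrays lay below all 3 L/Z arrays for each of the 3 genes. Within project 6, which holds both fractions, the differences were -2.32, -1.44 and -1.31. Without mP replicate 2, E2f1 had -0.82 (adjusted p = 0.222) and Rb1 -0.83 (adjusted p = 0.338), and Rb1 also missed the threshold without L/Z replicate 1 (adjusted p = 0.0989) or 3 (0.0612) and with no filter on probe sets (0.0537).

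Of the genes that missed, E2f3 is described only, as it passed the filter through arrays of Sp, pL and L/Z alone. Its difference was -1.39 (standard error 0.52), with no overlap between the fractions, and -1.81 with array project as a block. With values under 5 raised to 5, where both its mP arrays lie, it was -0.64. The brighter Rbl1 probe set had 1.20 (standard error 0.44, adjusted p = 0.0517), also with no overlap. It passed with array project as a block, at 1.25 (adjusted p = 0.00937), and with values under 5 raised to 5, at 1.20 (adjusted p = 0.0451). The second Rbl1 probe set went the opposite way and was at least 1.25 lower in mP, as a description. E2f6 had -0.77 (adjusted p = 0.135), E2f8 -0.43 (adjusted p = 0.406) and Rbl2 1.09 (adjusted p = 0.313). With values under 5 raised to 5 Rbl2 had 0.63 (adjusted p = 0.519). E2f2 had a difference of -1.37 between 2 levels under log2 5, as a description.

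From mP to D, 3 E2F genes fell and E2f8 rose. E2f6 fell by 2.40 (standard error 0.41, adjusted p = 0.000926 from limma), E2f1 fell by 1.58 (standard error 0.39, adjusted p = 0.0091) and E2f5 fell by 1.54 (standard error 0.43, adjusted p = 0.0193), while E2f8 rose by 1.44 (standard error 0.41, adjusted p = 0.0205). These are 4 calls among 9 genes, 2 of which, E2f2 and E2f3, were under log2 5 in every mP and D array. Of all probe sets 12.7% fell and 6.56% rose. For each of the 4, the 2 D arrays lay on 1 side of the 2 mP arrays. Within projects 4 and 6 the differences were -2.88 and -1.91 for E2f6, -2.09 and -1.07 for E2f1, -1.59 and -1.50 for E2f5, and 1.11 and 1.77 for E2f8. With 2 arrays a fraction the calls leaned on single arrays. E2f6 passed without any 1 of the 4, E2f5 missed without any 1 of them (adjusted p from 0.0593 to 0.108), E2f1 missed without mP replicate 1 (-1.06, adjusted p = 0.149) or D replicate 2, and E2f8 without mP replicate 2 (0.85, adjusted p = 0.216) or D replicate 1. The second probe set of E2f5 had -0.96 (adjusted p = 0.0865). Rb1 had -0.91 (adjusted p = 0.195), and passed with array project as a block at the same value (adjusted p = 0.0176).

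From D to RS 1 of the 9 genes was called, E2f5, which rose by 1.42 (standard error 0.37, adjusted p = 0.0107 from limma), and 0 fell, with 3 of 9 at an unadjusted p under 0.05. E2f2 and E2f3 were under log2 5 in every D and RS array. Of all probe sets 10.9% rose and 14.2% fell, so 1 rise of 9 genes, that of E2f5, lies near the share over all probe sets. The rise was 1.40 and 1.52 within projects 4 and 6, the second probe set rose by 1.36 (adjusted p = 0.006), and without D replicate 1 or 2 the adjusted p was 0.0773 or 0.0591 at 1.43 and 1.42. The brighter Rbl2 probe set had 1.58 (standard error 0.74, adjusted p = 0.141), with 1 D array, at 8.27, just above the lowest RS array. The other Rbl2 probe set had 2.55 and 4.82 in D, under log2 5, and at least 1.72 more in RS, as a description. The brighter Rbl1 probe set had -0.89 (adjusted p = 0.14) with no overlap, and -0.99 (adjusted p = 0.0192) with project as a block.

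From Sp to pL, the entry into meiosis, 0 of 8 tested members were called in either direction by limma, with 1 of 8, E2f1, at an unadjusted p under 0.05. Few probe sets were called at all, 0.415% falling and 0.0714% rising. E2f1 had -0.69 (standard error 0.29, adjusted p = 0.389), with the 3 pL arrays below the 4 Sp arrays. E2f3 had -0.89, and the 5 genes besides these 2 and Rbl2 were between -0.47 and 0.10. Rbl2 had -0.88, and -0.38 with values under 5 raised to 5, where all its pL arrays lie. Within projects 2, 5 and 8 the differences of Rbl2 were 0.07, -0.19 and -2.66. For E2f2 the difference was -1.09, and -1.49, -1.10 and 0.38 within projects 2, 5 and 8, as a description. At the next step, from pL to L/Z, the members other than E2f2 had differences between -0.88 (E2f3) and 0.92 (Rbl2), given without a test. With values under 5 raised to 5 these 2 genes had -0.64 and 0.56.

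**Figure D3:**
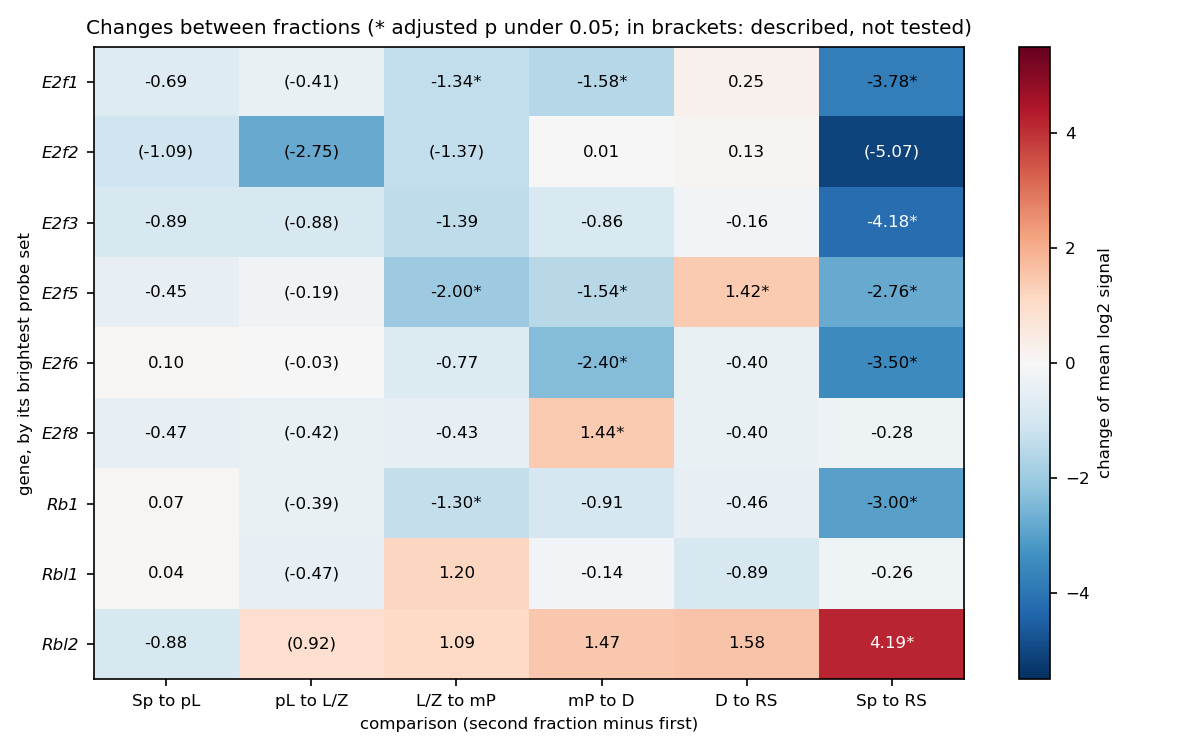
Change of the mean log2 signal (colour and number) of the 9 tested genes (rows, each by its brightest probe set) in 6 comparisons of fractions (columns, second minus first). An asterisk marks an adjusted p under 0.05 from limma, and brackets mark differences that were described and not tested. The column from Sp to RS holds 6 asterisks, 5 of them on falls, and the column from Sp to pL none. The asterisk of E2f3 from Sp to RS is not read, as its signal reached log2 5 only in Sp, pL and L/Z arrays.

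Other genes of the pathway were followed as lists, by the brightest probe set of each gene, naming at most 4 called genes of largest change per comparison. The shares over all probe sets were 15.3% falling and 13.7% rising from L/Z to mP, 12.7% and 6.56% from mP to D, and 41.2% and 31.9% between Sp and RS, and a count of 1 or 2 in the lists of 7 to 11 genes lies near them. From Sp to pL limma called 0 of the 89 tested genes of the 7 lists, with 17 at an unadjusted p under 0.05. Of 11 genes for DP partners, the remaining E2F and the MuvB core with its MYB factors, 1 rose and 2 fell from L/Z to mP. Mybl1, a MYB factor of meiotic cells, rose by 2.21, Tfdp2, which encodes the partner DP2, fell by 1.61 (adjusted p = 0.0042) and Foxm1 fell by 1.29. Between Sp and RS 4 rose and 6 fell. Tfdp1 (DP1) fell by 3.56, Tfdp2 fell by 3.38 and Mybl1 rose by at least 4.47. E2f7, the closest relative of E2f8, fell by at least 3.58 (adjusted p = 3.19e-06). E2f8 had -0.28 between the same fractions, and the difference between these 2 genes was not tested.

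Of 8 cyclins and kinases that phosphorylate RB proteins, 0 rose and 2 fell from L/Z to mP. The cyclin D1 gene Ccnd1 fell by 2.70 (adjusted p = 0.00167) and Ccne1 fell by 1.01. At the step from mP to D, 3 of them fell. Ccnd2 fell by at least 3.27, Ccnd1 fell by 2.64 and Cdk4 fell by 2.16. Between Sp and RS 6 fell and 1 rose. Ccnd1 fell by at least 5.67 and Ccnd3 (cyclin D3) rose by 1.66 (adjusted p = 0.000405). Of 7 CDK inhibitors, 2 rose and 0 fell from L/Z to mP, Cdkn2c (p18) by 1.99 (adjusted p = 0.00435) and Cdkn2d (p19) by 1.85 (adjusted p = 0.0154), both inhibitors of the cyclin D kinases. These 2 rose by 2.58 and 2.75 from Sp to RS, and 4 fell. Of these Cdkn2a fell by at least 2.79 and Cdkn1a (p21) by at least 2.39.

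Of 30 E2F target genes of the G1/S transition and DNA synthesis, 27 were tested. From L/Z to mP 14 fell and 1 rose, with a median of -1.39. Tk1 (thymidine kinase) fell by at least 2.09 (adjusted p = 8.4e-05), Rrm2 (ribonucleotide reductase) fell by 2.29, Cdc6 fell by 2.16 and Mcm2, a subunit of the replicative helicase, fell by 2.11. The rise was Ezh2, a histone methyltransferase, by 0.95, named after its value was seen. At the step from mP to D 12 fell and 0 rose. Mcm2 fell by at least 4.31 (adjusted p = 9.16e-06), Cdt1 fell by 4.52, Mcm4 fell by at least 3.87 and Ung by at least 3.31. Between Sp and RS 25 of 27 fell and 1 rose, where 41.2% of all probe sets fell. Cdt1 fell by at least 7.01, Mcm4 by at least 6.93, Mcm2 by at least 6.75 and Mcm3 by at least 6.52, and these bounds give no order. From Sp to pL the median of this list was -0.08, and its mean log2 signal was 11.0 in Sp, 10.9 in pL, 10.5 in L/Z, 9.37 in mP, 8.02 in D and 7.57 in RS.

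Of 22 genes of G2 and mitosis bound by DREAM and MYB-MuvB, 21 were tested. From Sp to pL limma called 0 of them, with 14 at an unadjusted p under 0.05. Their median change at that step was 0.72, against 0.02 over all probe sets. The mean log2 signal of the list was 10.5 in Sp, 11.2 in pL and 11.3 in L/Z. From L/Z to mP 11 fell and 0 rose. Cenpa (a centromeric histone) fell by 2.37, Aurkb fell by 2.08, Ccna2 (cyclin A2) fell by 1.97 and Kif23 fell by 1.75. Between Sp and RS 4 fell and 6 rose, or 7 and 7 with values under 5 raised to 5. Cenpa fell by at least 7.18 and Ccna2 fell by 4.45, and the mitotic kinase genes Aurka and Plk1 rose by 3.57 and 2.28. The median over this list was -0.02 between Sp and RS, against -3.30 for the G1/S genes, and whether the lists differ was not tested.

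Of the 10 other subunits of the polycomb complex of E2F6, 8 were tested. From L/Z to mP 3 fell and 1 rose, or 2 with values under 5 raised to 5. Yaf2 fell by 2.02, Mga fell by 1.52 and its partner Max fell by 1.16, while Pcgf6 rose by 1.87 (adjusted p = 0.00917). Between Sp and RS 6 fell and 1 rose. Yaf2 fell by 4.31, Rnf2, a ubiquitin ligase, fell by at least 3.89 and Pcgf6 rose by 2.41. Of 8 germline genes known as repressed by E2F6 in somatic cells, 7 were tested, and limma called 0 of them both from L/Z to mP, with 5 at an unadjusted p under 0.05, and from mP to D, where E2f6 fell, with 0 at an unadjusted p under 0.05. Between Sp and RS 2 of the 7 rose and 3 fell. Tdrkh fell by 2.56, Slc25a31 fell by 1.71 and Mael rose by 1.37. The mean over these genes was between 10.7 and 11.7 in all 8 fractions.

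**Figure D4:**
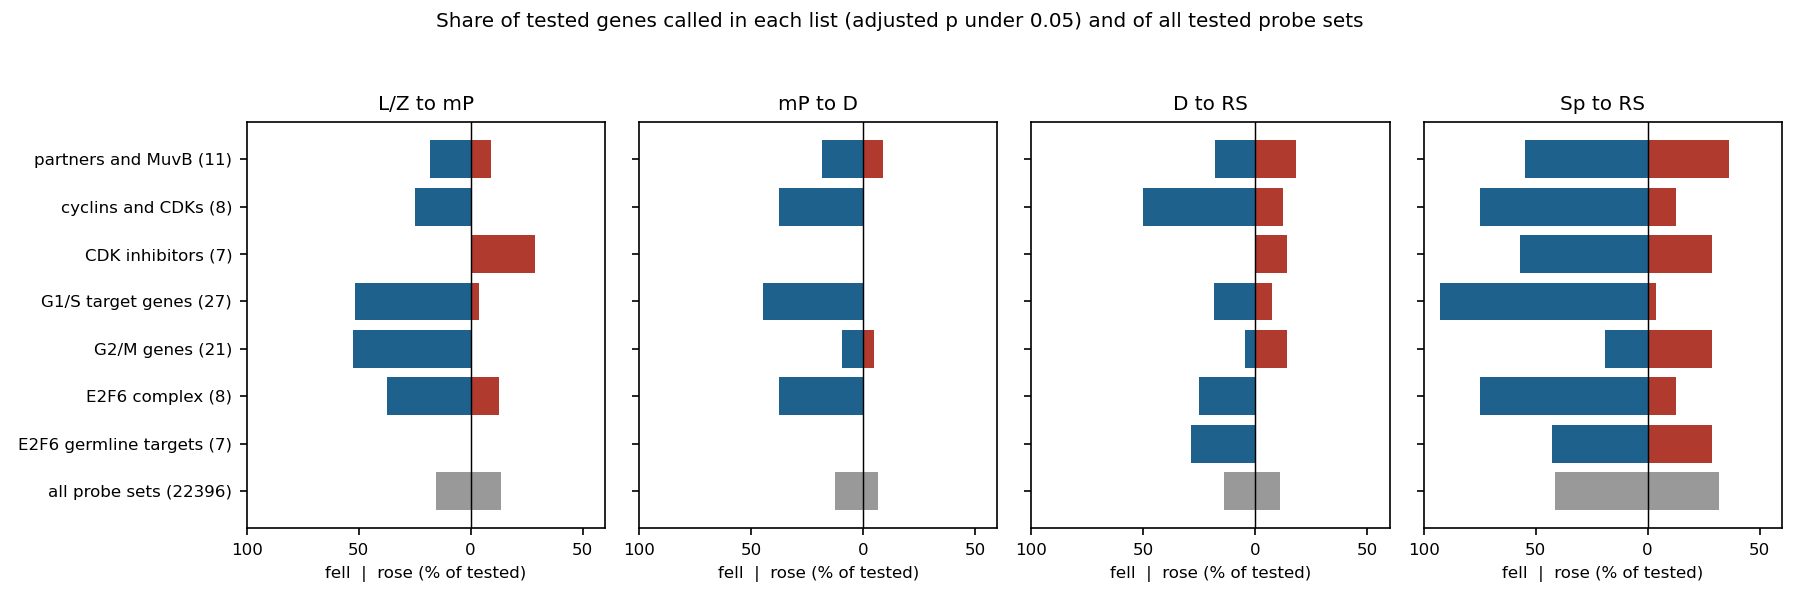
Share of the tested genes of 7 pathway lists (rows, with the number tested) that fell (blue, to the left) or rose (red, to the right) at an adjusted p under 0.05 in 4 comparisons (panels), in percent of the genes tested (x axis). The grey bar gives the same over all 22396 probe sets. The G1/S list has 14 falls of 27 from L/Z to mP, 12 from mP to D and 25 from Sp to RS.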

How the data were processed

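Per the study's methods, the authors hybridised RNA of sorted, pooled germ cells to Affymetrix MOE430 version 2 arrays. They deposited linear GC-RMA intensities for 45037 probe sets. No source used here states the version of the algorithm. GC-RMA sets signals near background to low values that carry little information. Fractions came from the sample labels. Gene names came from the platform annotation, with 34945 probe sets of 1 gene.

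Signals were taken to log2, and limma 3.58.1 in R 4.3.3 fitted 8 fractions over 20 arrays (lmFit, contrasts.fit, eBayes; 12 residual degrees of freedom), with Benjamini-Hochberg adjustment over 22396 probe sets with log2 of at least 5 in at least 2 arrays. The number of arrays limits the precision. Tables, motif searches and plots used Python 3.11.15 with pandas 2.3.3 and matplotlib 3.10.9. The fit was tested on simulated data. Named were all 10 members and, per pathway list and comparison, at most 4 called genes of largest change, with exceptions marked. Members and lists were chosen with earlier results of these data known. Arrays of equal array project, taken from headers of a supplementary dataset by equal signals, deviated together in all 21 pairs (correlation over 0.1). Alternatives were the filter, quantile and median normalization, a floor at log2 5, a variance trend, blocks, the probe set of highest variance and leaving out arrays. Protein sequences were not used here.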

Additional observations from a re-analysis of the deposited data

Results flagged for a closer look

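In groups of 4 arrays (Sp and RS), 30 sets of values were searched for a value far from the others, and 1 was found: E2f6 in round spermatids, where replicate 4 had 5.15 and the other 3 arrays 5.54 to 5.57 on the log2 scale. Chance flags about 1 set in 20, so 1 of 30 is no more than chance gives. All 4 values lay below every D array, of which the lower had 5.77.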

How the results depend on the processing

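Between Sp and RS the count was 7 under every alternative run except the probe set of highest variance, with 8. It holds E2f2 and E2f3, which are described only there and add no support. The call added in the 8 is the second Rbl1 probe set, which is also described only. From Sp to pL 0 members passed under each. From L/Z to mP the count of 3 was 2 with no filter. It was 4 with the floor at log2 5, quantile normalization or the variance trend, where the brighter Rbl1 probe set passed as a rise. With the probe set of highest variance it was also 4, but there the second Rbl1 probe set, described only, was called as a fall. The count was 5 with the array project block and with the replicate block, in which arrays of equal number were paired. Leaving out single arrays gave 1 to 5, the 1 without mP replicate 2 and the 5 without Sp replicate 3 or 4. The counts of 5 with the array project block and without Sp replicate 3 or 4 hold E2f3, which is described only at this step. Among all 22396 probe sets, 3062 rose and 3417 fell at this step in the main fit. These were 4010 and 4919 with the replicate block, 3751 and 5336 with the array project block and 1275 and 825 without mP replicate 2. Without Sp replicate 3 they were 3053 and 3373, and without Sp replicate 4 they were 3143 and 3579. From mP to D the count of 4 was 5 with either block. It was 2 to 4 leaving out single arrays, with 2 without any 1 of the mP and D arrays. Over all probe sets 1469 rose and 2852 fell at this step in the main fit. With the replicate block 2407 rose and 3818 fell, and with the array project block 2744 and 4072. Without mP replicate 1 or 2, 599 and 963 rose, and 1300 and 2665 fell. Without D replicate 1 or 2, 928 and 664 rose, and 2622 and 1350 fell. From D to RS the count of 1 was 2 with the replicate block and 2 with the array project block. It was 0 to 1 leaving out single arrays, with 0 without D replicate 1 or 2. Over all probe sets 2431 rose and 3181 fell at this step in the main fit. With the replicate block 3126 rose and 4218 fell, and with the array project block 2867 and 3835. Without D replicate 1 or 2, 1114 and 1646 rose, and 1443 and 2632 fell. Arrays of equal replicate number deviated together in 33 of 37 pairs (correlation over 0.1), not in all, so the numbers were not taken as pairing. With the replicate block Rbl2 had 1.37 from L/Z to mP (adjusted p = 0.0486) and passed. Of 15 called changes of single genes, none turned its direction under any alternative, and all 15 passed with either block. E2f2 and E2f3 from Sp to RS are among the 15 and are described only. Of 28 that were not called, small differences changed sign. With the replicate block Rb1 had -0.011 and Rbl1 -0.043 from Sp to pL, and with quantile normalization E2f2 had -0.013 from mP to D. Leaving out single arrays gave -0.11 to 0.32 for E2f6, -0.15 to 0.31 for Rb1 and -0.17 to 0.31 for Rbl1 from Sp to pL, -1.03 to 0.16 for E2f8 from L/Z to mP, -0.095 to 0.11 for E2f2 and -0.455 to 0.18 for Rbl1 from mP to D, -0.0092 to 0.21 for E2f2, -0.48 to 0.15 for E2f3 and -0.98 to 0.061 for Rb1 from D to RS, and -0.47 to 0.014 for Rbl1 from Sp to RS. With few arrays a fraction and signals of E2f2 and E2f3 under log2 5 from pachynema on, changes among the late fractions are poorly resolved for these genes.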
